A study of Mus musculus with 57 samples.

Results

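The 8 genes described here encode dual-specificity phosphatases that act on MAP kinases. Dusp2, Dusp3, Dusp4, Dusp5, Dusp6, Dusp7, Dusp10 and Dusp16 were followed across both experiments of a study of mouse microglia with and without the receptor P2RY12. The genes were chosen as a family, by name, and all 8 were found by symbol in both deposited tables of gene counts, among 50565 genes in the first and 53278 in the second, and each passed the filter on low counts in each. RNA had been isolated from CD11b-positive brain cells, labelled as microglia, of wild-type (WT) mice and of littermates deficient in P2RY12 (KO). One experiment, the sex experiment, used adult animals of both sexes whose characteristics name no treatment: among males there were 4 WT and 5 KO, and among females likewise 4 WT and 5 KO. The other, the LPS experiment, compared animals given lipopolysaccharide, the endotoxin of gram-negative bacteria (LPS, 1 mg/kg by intraperitoneal injection), with animals labelled ns. For WT it had 8 libraries of ns and 9 of LPS, and for KO 8 of each. Neither the meaning of ns is defined nor the interval between injection and isolation, and the labels give no age in weeks, no strain and no cell-type restriction of the deficiency.

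Dual-specificity phosphatases remove the phosphates from both the threonine and the tyrosine of the activation loop of a MAP kinase and so switch it off. Many of their genes are themselves induced by MAP kinase signalling, which makes them a negative feedback. Dusp2, Dusp4 and Dusp5 encode inducible nuclear enzymes, of which DUSP5 is selective for ERK. Dusp6 and Dusp7 encode cytoplasmic enzymes selective for ERK. Dusp10 and Dusp16 encode enzymes that act mainly on the stress-activated kinases JNK and p38. Dusp3 encodes a small atypical enzyme that lacks the MAP kinase binding domain of the others. In macrophages and microglia LPS is sensed by TLR4, which activates ERK, JNK and p38, while P2RY12 is a receptor for ADP that couples to an inhibitory G protein.

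On the build GRCm39, Dusp2 lies at chr2:127178079-127180297, Dusp5 at chr19:53517576-53530240 and Dusp4 at chr8:35274448-35289106, all on the plus strand. Dusp6 lies at chr10:99098676-99103351 and Dusp7 at chr9:106245831-106252923, on the plus strand as well. Dusp10 lies at chr1:183766575-183807833 on the plus strand and Dusp16 at chr6:134692431-134769687 on the minus strand. Dusp3 lies at chr11:101861967-101877839 on the minus strand. These are the spans of whole genes, as the count table of the sex experiment gives them.

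The promoter stretches of the 5 genes that the results turn on are shown first. RefSeq windows for the build GRCm38.p6, running from 250 bases before to 50 bases after the annotated start, were matched by symbol for 7 of the 8 members, and Dusp4 was the exception. Each line gives the 170 bases just before the start, 5′ to 3′ on the strand of the gene, with motif matches in capitals. Dusp2 and Dusp16 are the genes whose transcripts rose with LPS in both genotypes, Dusp6 and Dusp7 those that fell, and Dusp5 varied together with Dusp2 between animals of the sex experiment.
Dusp2, chr2:127335989-127336158, plus strand: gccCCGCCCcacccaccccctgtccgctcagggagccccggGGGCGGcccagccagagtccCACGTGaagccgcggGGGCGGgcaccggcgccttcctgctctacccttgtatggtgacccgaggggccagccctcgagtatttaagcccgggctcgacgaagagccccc
Dusp16, chr6:134792629-134792798, minus strand: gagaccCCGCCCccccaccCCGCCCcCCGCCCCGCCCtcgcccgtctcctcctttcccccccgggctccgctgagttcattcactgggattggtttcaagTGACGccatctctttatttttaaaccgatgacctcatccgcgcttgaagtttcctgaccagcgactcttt
Dusp6, chr10:99263061-99263230, plus strand: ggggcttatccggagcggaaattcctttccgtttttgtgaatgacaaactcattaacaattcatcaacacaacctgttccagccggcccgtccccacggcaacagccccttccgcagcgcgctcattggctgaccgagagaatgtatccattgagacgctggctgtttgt
Dusp7, chr9:106368462-106368631, plus strand: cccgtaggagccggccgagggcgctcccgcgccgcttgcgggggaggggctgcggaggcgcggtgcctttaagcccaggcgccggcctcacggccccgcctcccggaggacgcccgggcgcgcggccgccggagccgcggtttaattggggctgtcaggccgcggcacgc
Dusp5, chr19:53528975-53529144, plus strand: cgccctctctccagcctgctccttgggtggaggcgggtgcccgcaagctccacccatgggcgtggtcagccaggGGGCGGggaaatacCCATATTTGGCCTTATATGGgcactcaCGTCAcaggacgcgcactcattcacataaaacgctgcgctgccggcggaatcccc

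A set of 8 motifs was searched on both strands of the whole windows. In Dusp5 a pair of abutting CArG boxes, the element bound by serum response factor, began at positions -82 and -72 from the start, and 1.63% of all 32851 windows held at least 1 such box. In Dusp2 an E-box (CACGTG), the element of basic helix-loop-helix factors, lay at position -109, against 7.15% of all windows. GC boxes (GGGCGG), the element of Sp1, were found in 6 of the 7 windows, all but that of Dusp6, and in 35.7% of all windows; the box of Dusp7 lay after the start, outside the line above, and boxes can overlap each other. The cyclic AMP half-site TGACG was found in Dusp2, Dusp5 and Dusp16 and in 20.8% of all windows, the match in Dusp2 lying after the start. The full site TGACGTCA, the AP-1 site TGANTCA, the TATAAA box and the NF-kappaB motif were matched in 0 of the 7 windows, against 1.79%, 7.81%, 13.6% and 8.46% of all windows. A match or its absence describes these letters in these windows and nothing about binding. Windows of the 7 members held 57.3% to 78.7% G and C bases, against a median of 52.7% over all windows.

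Some facts of the libraries bear on every result. Totals per sample, in units of 1e6 counts, ran from 58.5 to 318.5 in the sex-comparison table and from 15.9 to 168.4 in that of LPS. P2ry12 checked the labels: its level was 309.3 to 526.4 CPM (counts per 1e6 counts, with TMM-scaled library sizes) in the 10 KO animals of the sex experiment and 3007 to 5928 CPM in the 8 WT animals. With ns it was 588.3 to 1169 CPM in KO and 3536 to 5476 CPM in WT, and with LPS 85.16 to 147.9 CPM in KO and 405.0 to 1020 CPM in WT, so it was lower with LPS in both genotypes. P2ry12 lies within Med12l, on the opposite strand. As the strand setting of the counting is not given, reads of these genes cannot be told apart. In the LPS experiment the 4 WT libraries whose names end in library number 2 ran against their treatment labels: the 2 labelled ns had Saa3, an acute-phase gene, at 1814 and 2426 CPM, and the 2 labelled LPS at 1.607 and 2.979 CPM. P2ry12 was 490.0 and 903.1 CPM in the former and 4505 and 11280 CPM in the latter. They are shown apart here, as the libraries labelled WT ns or WT LPS with number 2, and entered the fits as groups of their own, so that the main WT comparison had 6 samples against 6. WT LPS 8 and WT LPS 9 differed by little more than sampling noise and were summed to 1 sample. The library names form 2 sets, fitted as a covariate. Set 1 carried the Y-linked Ddx3y at 97.25 to 138.8 CPM and set 2 at no more than 0.5813 CPM, so set and sex cannot be told apart. From set 2, 6 libraries, namely WT ns 5, WT LPS 6, WT LPS 7, KO ns 5, KO ns 6 and KO LPS 5, stood apart on the first principal component, which held 54.3% of the variance, and the LPS results are also given without them. Summed microglial markers (all 10 detected, P2ry12 among them) had medians of 37930 CPM in WT ns, 20910 in WT LPS, 37860 in KO ns and 24520 in KO LPS. In bulk samples like these, fewer cells of a type and less RNA per cell cannot be told apart.

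In the ns samples the ERK-selective pair led the family. Per kilobase of merged exon, in the 6 WT ns samples, Dusp6 stood at 133.0 ± 45.4 CPM per kb (mean ± SD), Dusp7 at 68.1 ± 22.1 and Dusp3 at 14.8 ± 1.28. Dusp16 followed with 5.20 ± 1.46, then Dusp5 with 1.53 ± 0.322, Dusp2 with 1.08 ± 0.134, Dusp10 with 0.785 ± 0.226 and Dusp4 with 0.103 ± 0.0576. The ranges of Dusp6 and Dusp7 overlapped although Dusp6 was higher in each of the 6 samples, and so did those of Dusp5 and Dusp2 and those of Dusp2 and Dusp10. In the 8 KO ns samples the 4 leading genes kept this order, with Dusp6 at 159.5 ± 14.9 CPM per kb, and Dusp10, Dusp5 and Dusp2 had overlapping ranges. Dusp4 was at the edge of detection in the LPS experiment, with at most 27 counts in a sample. The gene lengths deposited with the counts of the sex experiment span introns, so genes were not ranked by level there.

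**Figure D1:**
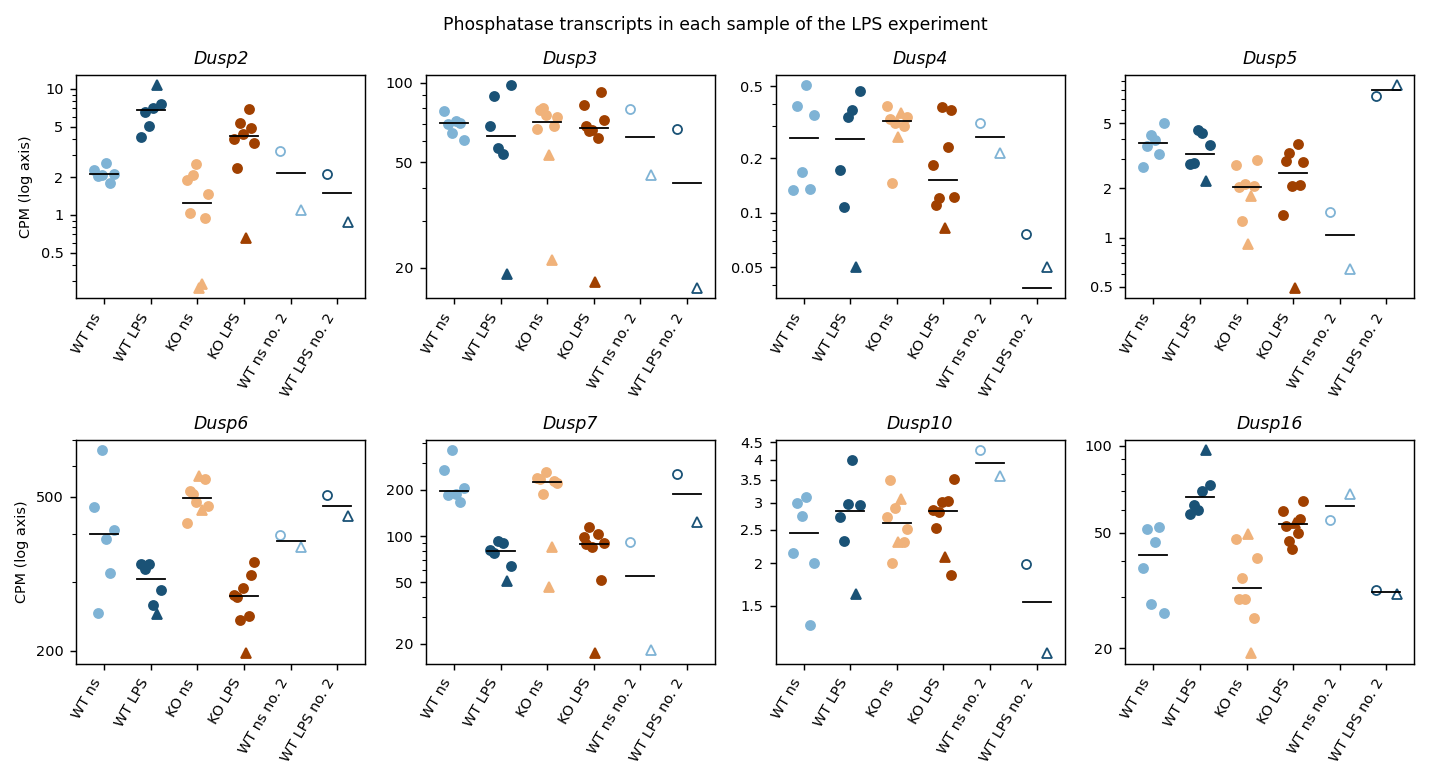
Level of each phosphatase gene (CPM, log axis) in each sample of the LPS experiment; circles are samples, triangles the 6 libraries that stood apart, open marks the WT libraries of number 2, black lines group medians, and a Dusp4 count of 0 is drawn at the bottom of its axis at 0.05. Dusp7 lay at 166.2 to 362.1 CPM in the 6 WT ns samples and at 51.18 to 93.3 CPM in the 6 WT LPS samples.

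The first question was how the family responded to LPS. Of the 8 genes, 4 changed in both genotypes, and each moved the same way in WT and KO: Dusp2 and Dusp16 rose, and Dusp6 and Dusp7 fell. In KO the 4 called genes compare with 26.2% of the 17954 genes tested (11.9% higher and 14.2% lower), and in WT with 28.1% (13.5% higher and 14.6% lower). Calls are at an adjusted p under 0.05 from edgeR's quasi-likelihood test with Benjamini-Hochberg adjustment over all genes tested. The median log2 fold change of the 8 genes was 0.04 in KO and -0.10 in WT, beside -0.032 and -0.025 over all genes tested. DESeq2 called the same number, 4 in each genotype.

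Dusp2, an inducible nuclear phosphatase abundant in activated leukocytes, had the largest rise of the 8 genes. Its level in WT was 1.80, 2.10 and 2.604 CPM (lowest, median and highest) in ns and 4.18, 6.78 and 10.8 CPM in LPS. In KO it was 0.263, 1.25 and 2.52 CPM in ns and 0.655, 4.21 and 6.97 CPM in LPS. These KO levels rest on 4 to 105 counts per sample in ns and 16 to 241 in LPS. The WT groups did not overlap, while the KO groups did, because KO LPS 5, one of the libraries that stood apart, and KO LPS 2 lay within the ns range. LPS lay wholly above ns in WT for 9.47% of all genes tested. The log2 fold change was 1.71 ± 0.45 (SE) in WT, with an adjusted p of 0.00462, and 1.68 ± 0.39 in KO, with an adjusted p of 0.00184, which are 3.27-fold and 3.2-fold on the linear scale. Within set 1 the values were 1.32 in WT and 1.11 in KO, and within set 2 they were 1.99 and 2.52. Dusp4 and Dusp5, the other inducible nuclear members, passed the test in neither genotype. Dusp5 had log2 fold changes of -0.15 ± 0.33 in WT and 0.24 ± 0.29 in KO, with group medians of 3.77 and 3.26 CPM in WT ns and LPS and of 2.05 and 2.48 CPM in KO. Dusp4 had values of -0.07 ± 0.50 and -0.61 ± 0.43, and in WT LPS 7 it had 0 counts, which allows up to 0.203 CPM; such limits cover counting error only.

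Dusp6, the best-known feedback inhibitor of ERK, was the most abundant member and fell. Its level in KO was 428.2, 497.4 and 564.4 CPM (lowest, median and highest) in ns and 196.5, 277.3 and 338.2 CPM in LPS. Every KO LPS sample lay below every KO ns sample. An absence of overlap held for 7.10% of all genes tested in either direction, and for 3.65% with LPS below ns. In WT it was 249.5, 400.1 and 660.9 CPM in ns and 249.1, 306.5 and 335.2 CPM in LPS, and the groups overlapped. The log2 fold change was -0.88 ± 0.15 in KO, with an adjusted p of 3.82e-05, and -0.48 ± 0.17 in WT, with an adjusted p of 0.0342. The WT value rested on WT ns 4, the deepest library and the highest in Dusp6: without it the log2 fold change was -0.27 and the adjusted p 0.188. The WT call was also lost with RLE scaling, at an adjusted p of 0.0501, with no filter on low counts, at 0.103, and in set 1 and set 2 alone, at 0.157 and 0.488. It was made in 6 of 13 alternatives, and the log2 fold change was below 0 in each, from -0.51 to -0.23.

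Dusp7, the other cytoplasmic ERK phosphatase, fell furthest. Its level in WT was 166.2, 195.7 and 362.1 CPM in ns and 51.2, 79.6 and 93.3 CPM in LPS. The WT groups did not overlap, and LPS lay wholly below ns in WT for 13.1% of all genes tested. In KO the Dusp7 level was 46.8, 224.2 and 259.6 CPM in ns and 17.3, 89.4 and 113.9 CPM in LPS. KO ns 5 and KO ns 6, both among the libraries that stood apart, were the only KO ns samples inside the LPS range, and without those libraries the KO groups were apart as well, as for 30.5% of all genes in either direction and 16.2% with LPS below ns. The log2 fold change was -1.55 ± 0.35 in WT, with an adjusted p of 0.0012, and -1.202 ± 0.298 in KO, with an adjusted p of 0.00295. The LPS level was thus 0.341 of the ns level in WT and 0.435 in KO.

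Dusp16, which acts mainly on JNK and p38, rose modestly. Its level in WT was 26.6, 42.1 and 52.4 CPM in ns and 58.1, 66.2 and 96.6 CPM in LPS, with no overlap. In KO it was 19.2, 32.4 and 49.5 CPM in ns and 43.9, 53.5 and 64.4 CPM in LPS, with overlap at the edge. Absence of overlap in WT, in either direction, held for 22.6% of all genes, and among the members for Dusp2, Dusp7 and Dusp16. Without WT LPS 7, which stood apart, it held for the same 3 members and for 28.8% of all genes. The log2 fold change was 0.78 ± 0.20 in WT, with an adjusted p of 0.00381, and 0.62 ± 0.17 in KO, with an adjusted p of 0.00735. Dusp10, its closest relative here, did not pass the test, with 0.23 ± 0.23 in WT and 0.03 ± 0.20 in KO. Dusp10 group medians lay between 2.44 and 2.84 CPM in the 4 main groups. Dusp3 did not pass either, with -0.13 ± 0.33 in WT and 0.04 ± 0.29 in KO. Its group medians lay between 62.6 and 71.2 CPM, and the lowest values of these groups, 17.6 to 21.4 CPM, came from WT LPS 7, KO ns 6 and KO LPS 5, all among the libraries that stood apart.

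**Figure D2:**
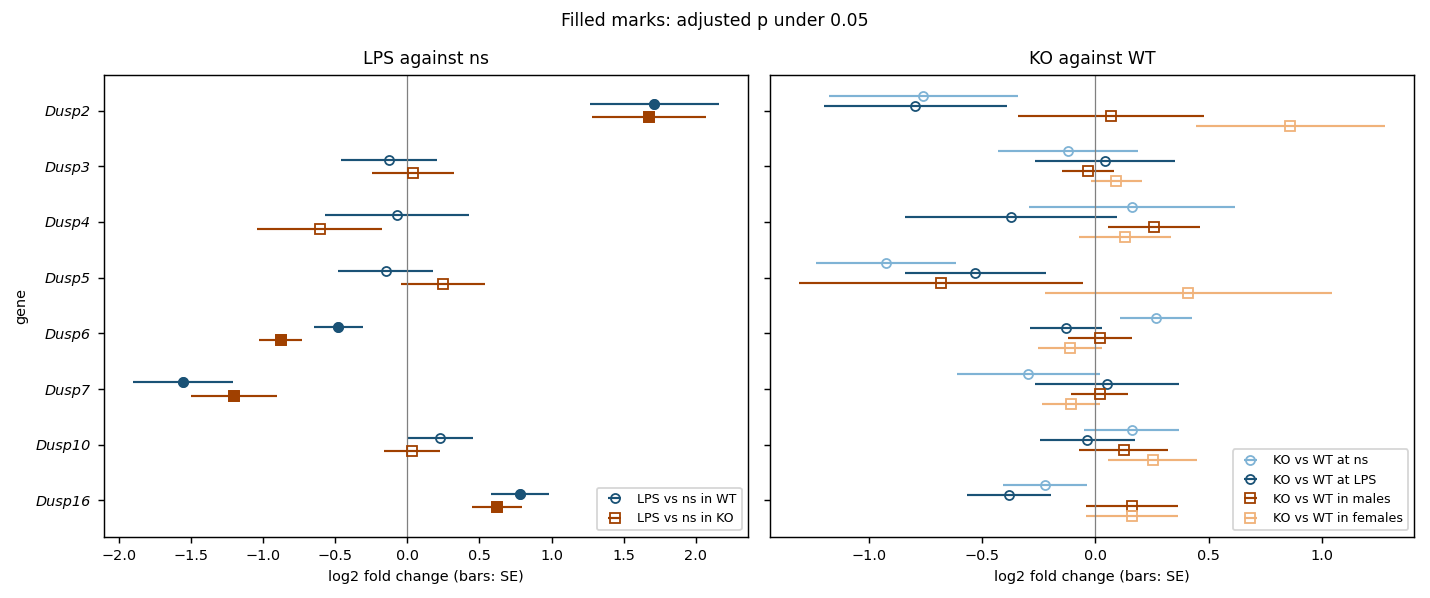
Log2 fold changes of the 8 genes (points) with their SE (bars), for LPS against ns in WT and KO on the left and for KO against WT in 4 comparisons on the right; filled marks passed an adjusted p of 0.05. The filled marks are Dusp2, Dusp6, Dusp7 and Dusp16 under LPS, and the right side has 0 filled marks.

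The WT libraries of number 2 ran against their labels in several of these genes too. The pair labelled ns had Dusp7 at 91.3 and 18.3 CPM, below all 6 other WT ns samples, and the pair labelled LPS had it at 251.6 and 122.9 CPM, above all 6 other WT LPS samples. For Dusp16 the pair labelled ns stood at 55.6 and 68.0 CPM, above the other WT ns samples, and the pair labelled LPS at 31.7 and 30.7 CPM, below the other WT LPS samples. Dusp2 was 3.24 and 1.10 CPM in the ns pair and 2.11 and 0.872 CPM in the LPS pair, the latter below the other WT LPS samples. Dusp6 was 397.9 and 369.9 CPM in the ns pair, inside the range of WT ns, and 504.7 and 444.7 CPM in the LPS pair, above the other WT LPS samples. Dusp5 was 7.31 and 8.58 CPM in the LPS pair, above every other sample of the experiment, and 1.44 and 0.639 CPM in the ns pair. The LPS pair also had summed T and NK cell markers of 103.9 and 388.7 CPM. These were 26.67 to 111.6 CPM in the other WT LPS samples and 49.74 to 93.07 CPM in the other WT ns samples. Summed markers of border-associated macrophages were 698.4 and 808.3 CPM in the pair. The other WT LPS samples had 86.45 to 321.0 CPM and the other WT ns samples 255.0 to 705.9 CPM, a range that holds the lower value of the pair. The part of these cells in the Dusp5 value was not tested. Dusp10 (4.27 and 3.58 CPM against 1.99 and 1.09 CPM) was higher in the ns pair.

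With those 4 libraries in their labelled groups, 0 of the 8 genes were called in WT, and 0.0% of 15857 genes were (3605 had an unadjusted p under 0.05). The log2 fold changes in WT were then 1.41 for Dusp2, -0.23 for Dusp6, -0.80 for Dusp7 and 0.41 for Dusp16, with adjusted p of 0.116, 0.407, 0.213 and 0.257 by edgeR. In KO, where no library was moved, 4 of 8 were called in that fit, against 22.3% of genes. Without the 6 libraries that stood apart, Dusp2, Dusp6, Dusp7 and Dusp16 were called in both genotypes, against 49.9% of 18282 genes in KO and 49.6% in WT, so that 4 of 8 is close to the share of all genes there. These log2 fold changes were 1.46 for Dusp2, -0.75 for Dusp6, -1.28 for Dusp7 and 0.65 for Dusp16 in KO, and 1.53, -0.42, -1.47 and 0.71 in WT. Set 1 alone called 4 members in KO (40.6% of genes) and 3 in WT (38.4%), Dusp6 being the gene lost. Set 2 alone called 1 in KO, Dusp2, (3.76% of genes) and 0 in WT (2.77%), with the 4 genes keeping their direction in both sets.

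The next question was whether loss of P2RY12 changed the family or its response. No member passed the test between KO and WT at either treatment: 0 of 8 were called at ns, where 0.0891% of genes were, and 0 of 8 at LPS, where 0.0780% were. DESeq2 called 0 in both. At an unadjusted p under 0.05 there was 1 member in each, beside 1664 of all 17954 genes at ns (9.27%) and 1096 at LPS (6.10%). At ns it was Dusp5, with 0.919, 2.05 and 2.96 CPM (lowest, median and highest) in KO and 2.71, 3.77 and 4.98 CPM in WT. The log2 fold change was -0.93 ± 0.31, with an adjusted p of 0.408, and the groups overlapped. At LPS it was Dusp16, with -0.38 ± 0.19 and an adjusted p of 0.807. Dusp2 had values of -0.76 ± 0.42 at ns and -0.80 ± 0.40 at LPS, with adjusted p of 0.573 and 0.838. The other members lay between -0.30 and 0.27 at ns, and between -0.53 and 0.05 at LPS, on the log2 scale. The WT samples of number 2 were not in these comparisons.

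The difference between the LPS responses of KO and WT was tested as an interaction, and 0 of the 8 genes and 0.0% of all genes passed (890 genes and 0 members had an unadjusted p under 0.05, and DESeq2 called 0 members). The largest value relative to its error was that of Dusp6, -0.40 ± 0.22, with an adjusted p of 0.784. The values of the other 3 LPS-responsive genes were -0.04 ± 0.60 for Dusp2, 0.35 ± 0.45 for Dusp7 and -0.16 ± 0.26 for Dusp16. With errors of this size the responses are not shown to be equal.

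In the sex experiment no member passed the test in any of 5 contrasts. Between KO and WT, 0 of 8 were called in males (0.00946% of 31709 genes), in females (0.164%) and averaged over the sexes (0.432%). The same held for the sex-by-genotype interaction (0.0%, with 879 genes at an unadjusted p under 0.05) and for females against males in WT (0.0725%). By edgeR, 0 members reached an unadjusted p under 0.05 in any of the 5, and DESeq2 called 0. The lowest adjusted p over the 8 genes was 0.667, in females against males. Across the averaged contrast the log2 fold changes ran from -0.14 to 0.47. For the interaction they ran from -0.13 to 1.09, the latter being Dusp5 with an SE of 0.89. That Dusp5 value was 0.08 without male WT 5 and 1.53 without female WT 2, and its averaged value of -0.14 ± 0.45 turned to 0.59 ± 0.39 without both.

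**Figure D3:**
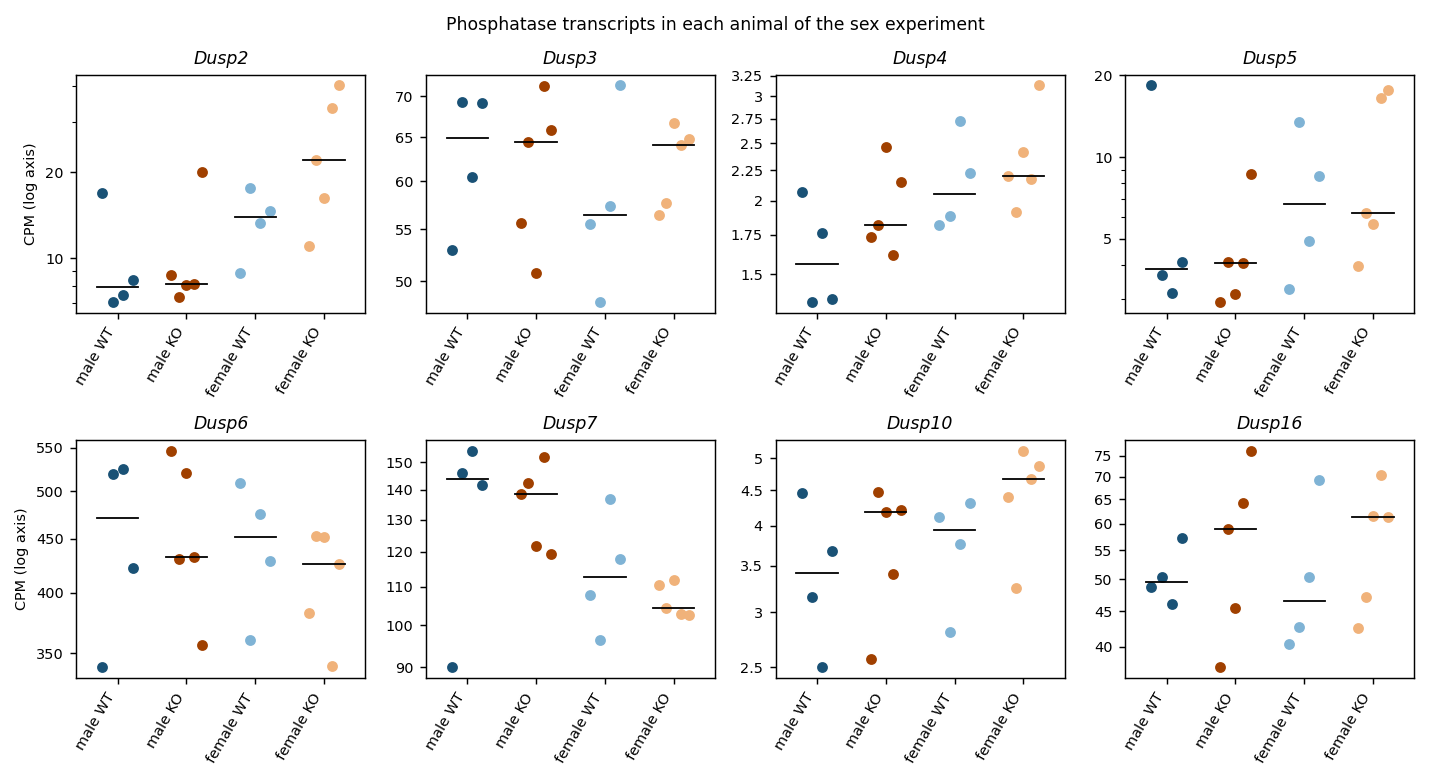
Level of each phosphatase gene (CPM, log axis) in each of the 18 animals of the sex experiment; points are animals and black lines group medians. The male KO and male WT points overlap in every panel, as do the female ones, and Dusp2 and Dusp5 have the widest spread.

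Dusp2 and Dusp5 varied most between animals. Dusp2 was 7.03, 7.46, 8.41 and 16.96 CPM in the male WT animals and 7.32, 8.07, 8.14, 8.72 and 20.1 CPM in the male KO animals. It was 8.90, 13.3, 14.6 and 17.6 CPM in the female WT animals and 11.0, 16.3, 22.1, 33.7 and 40.3 CPM in the female KO animals. One animal of each male group lay far above the rest, and the female KO group was spread over the widest range. Between KO and WT the log2 fold change was 0.07 ± 0.41 in males and 0.86 ± 0.42 in females, with an adjusted p of 0.991 in females. Dusp5 was 3.17, 3.67, 4.10 and 18.4 CPM in male WT and 2.93, 3.13, 4.08, 4.11 and 8.68 CPM in male KO. It was 3.27, 4.91, 8.51 and 13.5 CPM in female WT and 3.97, 5.69, 6.21, 16.5 and 17.7 CPM in female KO. Male WT 5, male KO 5, female WT 2, female KO 4 and female KO 5 were high in both genes. The match was not complete, as a further female KO animal had Dusp2 of at least 22.1 CPM with Dusp5 of at most 6.21 CPM. No cut for a high value was set, and the female WT animal at 8.51 CPM of Dusp5 lay near male KO 5. For Dusp5 the log2 fold change was -0.68 ± 0.63 in males and 0.41 ± 0.63 in females.

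Markers of other cells were high in some of these animals, though not the same markers in each. Male WT 5 and female WT 2, high in Dusp5, had summed neutrophil markers (all 10 detected) of 49290 and 29070 CPM, against 732.4 to 7760 CPM in the other 16 animals. Female KO 4 and 5 had summed markers of border-associated macrophages of 699.2 and 939.0 CPM, against at most 461.4 CPM elsewhere, and of T and NK cells of 169.0 and 313.1 CPM, against at most 165.2 CPM. Male KO 5, high in both genes, had sums of 2705, 354.1 and 83.83 CPM for these 3 lists, inside the range of the other animals. Summed monocyte markers also reached 4243 CPM in male WT and 2414 CPM in female WT, with group medians of 502.4 and 325.5 CPM. In male KO and female KO they reached 475.5 and 779.2 CPM. In the LPS experiment WT ns 3 and WT ns 8 had neutrophil sums of 18080 and 16780 CPM with Dusp2 at 2.04 and 2.11 CPM and Dusp5 at 3.60 and 4.98 CPM. The Dusp5 value of WT ns 8 was the highest of the 6 WT ns samples, whose median was 3.77 CPM. The part of other cells in the Dusp2 and Dusp5 levels was not tested. Without the 2 neutrophil-rich animals the Dusp5 log2 fold change in males turned to 0.33 ± 0.54, that of Dusp2 in females was 1.01 ± 0.45 with an adjusted p of 0.617, and 0 of 8 members were called in males (0.0125% of genes) or in females (0.602%).

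**Figure D4:**
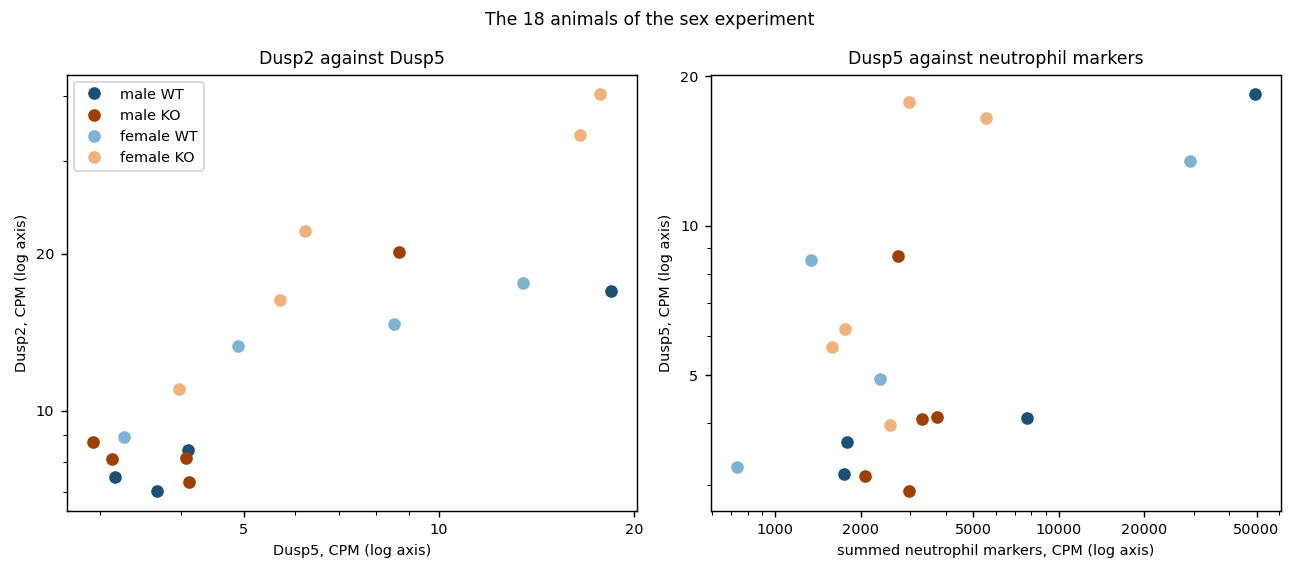
Dusp2 against Dusp5 (left) and Dusp5 against the summed neutrophil markers (right) in the 18 animals of the sex experiment, all in CPM on log axes, with points coloured by group. Animals high in Dusp5 were high in Dusp2, and only male WT 5 and female WT 2 lay far to the right in the plot against neutrophil markers, at 49290 and 29070 CPM.

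The steadier members differed little between groups. Dusp6 ranged from 339.4 to 546.4 CPM over the 18 animals, Dusp7 from 90.0 to 154.4, Dusp3 from 48.2 to 71.4 and Dusp16 from 37.4 to 76.3. Dusp10 ranged from 2.50 to 5.13 CPM and Dusp4 from 1.35 to 3.13 CPM. In males the log2 fold changes of these 6 genes between KO and WT were 0.02 ± 0.14 for Dusp6, 0.02 ± 0.13 for Dusp7, -0.03 ± 0.11 for Dusp3, 0.16 ± 0.20 for Dusp16, 0.13 ± 0.20 for Dusp10 and 0.26 ± 0.20 for Dusp4. In females they were -0.11 ± 0.14, -0.11 ± 0.13, 0.09 ± 0.11, 0.16 ± 0.20, 0.25 ± 0.20 and 0.13 ± 0.20 in the same order. Female Dusp7 had group means of 114.7 ± 17.2 CPM in WT and 106.4 ± 4.44 CPM in KO, and male Dusp7 of 133.0 ± 29.1 and 134.8 ± 13.8 CPM (SD, n = 4 WT and 5 KO per sex). Dusp6 overlaps the antisense gene Gm34921 and Dusp16 overlaps Gm36328 and 1700055D16Rik, and as the strand setting of the counting is not given, reads of such pairs cannot be told apart.

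Members were compared with each other by the correlation of log2 levels after group means were removed, given as a description over samples that share depth and cell makeup. In the 18 animals of the sex experiment Dusp2 and Dusp5 had r = 0.92, Dusp3 and Dusp16 0.77, Dusp6 and Dusp7 0.59, and Dusp5 and Dusp6 -0.77. In 28 samples of the LPS experiment, with set means removed as well, Dusp3 and Dusp7 had 0.53, Dusp6 and Dusp7 0.28 and Dusp3 and Dusp16 0.15. These samples held WT LPS 7, KO ns 5, KO ns 6 and KO LPS 5, all among the libraries that stood apart. Dusp3 was 21.41 CPM in KO ns 6 and 17.56 CPM in KO LPS 5, far below the rest of their groups. The part of such libraries in the correlations of the LPS experiment was not tested. Among 9620 genes that reached 5 CPM in both experiments, the genes most like each member were ranked by the smaller of the 2 correlations. They were Nek6 (0.83 and 0.92) and Wdr6 (0.83 and 0.94) for Dusp3, and Ppp1r21 (0.75 and 0.72) and Ttc5 (0.87 and 0.70) for Dusp6. They were St6galnac6 and Tpbgl (0.91 and 0.93 each) for Dusp7, and Il1rl1 (0.58 and 0.61) and Zfyve9 (0.71 and 0.58) for Dusp16.

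The rest of the pathway was read from lists of genes, described by counts and medians. Over all genes tested, the shares called with LPS to read these counts against are the 11.9% higher and 14.2% lower in KO and the 13.5% higher and 14.6% lower in WT given above. Among the 10 MAP kinases, the substrates of these enzymes, 1 rose and 1 fell with LPS in KO, and 1 rose and 2 fell in WT. Mapk11, encoding p38 beta, rose by 1.99 ± 0.41 in KO and 1.69 ± 0.47 in WT, and Mapk12, encoding p38 gamma, had -2.06 ± 0.35 and -2.67 ± 0.42, all on the log2 scale with adjusted p of at most 0.00699. Mapk3, encoding ERK1, fell in WT (-0.55, adjusted p = 0.0466 by edgeR) and had -0.32 in KO (adjusted p = 0.21). The median of the list was -0.12 in KO and -0.22 in WT.

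Of 25 kinases and adaptors upstream, 2 rose and 3 fell in each genotype, with medians of -0.06 in KO and -0.19 in WT. Map3k8, the kinase that links TLR4 to ERK, rose by 2.00 ± 0.12 in KO and 1.99 ± 0.13 in WT, and Map3k6 by 4.04 ± 0.87 and 3.93 ± 0.99. Map2k1, which phosphorylates ERK, fell by 0.60 ± 0.11 in KO and by 0.41 ± 0.13 in WT, and Map2k6, which phosphorylates p38, fell by 0.65 ± 0.19 and 0.91 ± 0.22. Of 11 genes downstream, nearly all of them kinases, 1 rose and 1 fell in KO and 1 rose and 2 fell in WT, with medians of 0.04 and -0.34. Mapkapk2, a p38 target that stabilises cytokine transcripts, rose by 1.25 ± 0.31 in KO and 1.195 ± 0.359 in WT. Rps6ka5, a nuclear kinase activated by ERK and p38, fell by 0.55 ± 0.14 and 0.87 ± 0.16. Mapkapk3 fell in WT (-1.21 ± 0.34) and had -0.56 ± 0.29 in KO, with an adjusted p of 0.17 by edgeR.

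Of 16 transcripts read as ERK output, 5 rose and 2 fell in KO and 4 rose and 3 fell in WT. Ier3 rose by 2.96 ± 0.31 in KO and 3.62 ± 0.37 in WT, and Spry4, a feedback inhibitor of receptor signalling to ERK, by 2.54 ± 0.47 and 2.70 ± 0.52. The transcription factor Etv1 fell by 1.10 ± 0.17 and 1.31 ± 0.20, and Spry1, a relative of Spry4, by 1.40 ± 0.32 and 1.66 ± 0.37. The calls of the list went both ways, with medians of 0.12 in KO and -0.10 in WT. Of 23 immediate early and dissociation genes, 7 rose and 4 fell in KO and 6 rose and 4 fell in WT. Socs3, an inhibitor of cytokine signalling, rose by 3.45 ± 0.34 and 3.12 ± 0.39, Nfkbiz, a nuclear regulator of NF-kappaB, by 1.93 ± 0.22 and 2.23 ± 0.26 and Ier2 by 1.68 ± 0.35 and 1.59 ± 0.41. Fosb fell in WT by 3.07 ± 0.68 and had -1.47 ± 0.57 in KO, with an adjusted p of 0.0594 by edgeR.

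Of 22 further genes of the DUSP family and its relatives, 14 were tested in the LPS experiment; 2 rose and 1 fell in KO and 1 rose in WT. Dusp1, the founding inducible nuclear member, rose by 1.52 ± 0.51 in KO (adjusted p = 0.0253 by edgeR) and 1.51 ± 0.57 in WT (0.0494). Its KO level was 11.2 to 24.8 CPM in ns and 7.57 to 216.7 CPM in LPS, so the groups overlapped. Dusp23 rose in KO by 0.93 ± 0.30 and had 0.89 ± 0.35 in WT, and Dusp12 fell in KO by 0.41 ± 0.14. The 10 genes kept as a check of the LPS response rose in 10 of 10 cases in KO and 9 of 10 in WT, with medians of 4.01 and 4.75. Markers of cell types moved with LPS as well. Microglial markers fell in 6 of 10 cases in KO and 7 of 10 in WT, 3 of 6 markers of border-associated macrophages fell in each genotype, and T and NK cell markers fell in 4 of 8 cases in KO and 1 of 8 in WT. B cell markers and endothelial markers each fell in 2 of 4 cases in KO and 3 of 4 in WT, and oligodendrocyte markers in 1 of 4 and 2 of 4. Neutrophil markers fell in 0 of 10 cases in KO and 2 of 10 in WT, and of 7 monocyte markers 1 rose and 1 fell in each genotype. Of 4 astrocyte markers 1 rose in each, and of 4 neuronal markers 0 were called. Their part in the changes of the phosphatase genes was not tested.

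**Figure D5:**
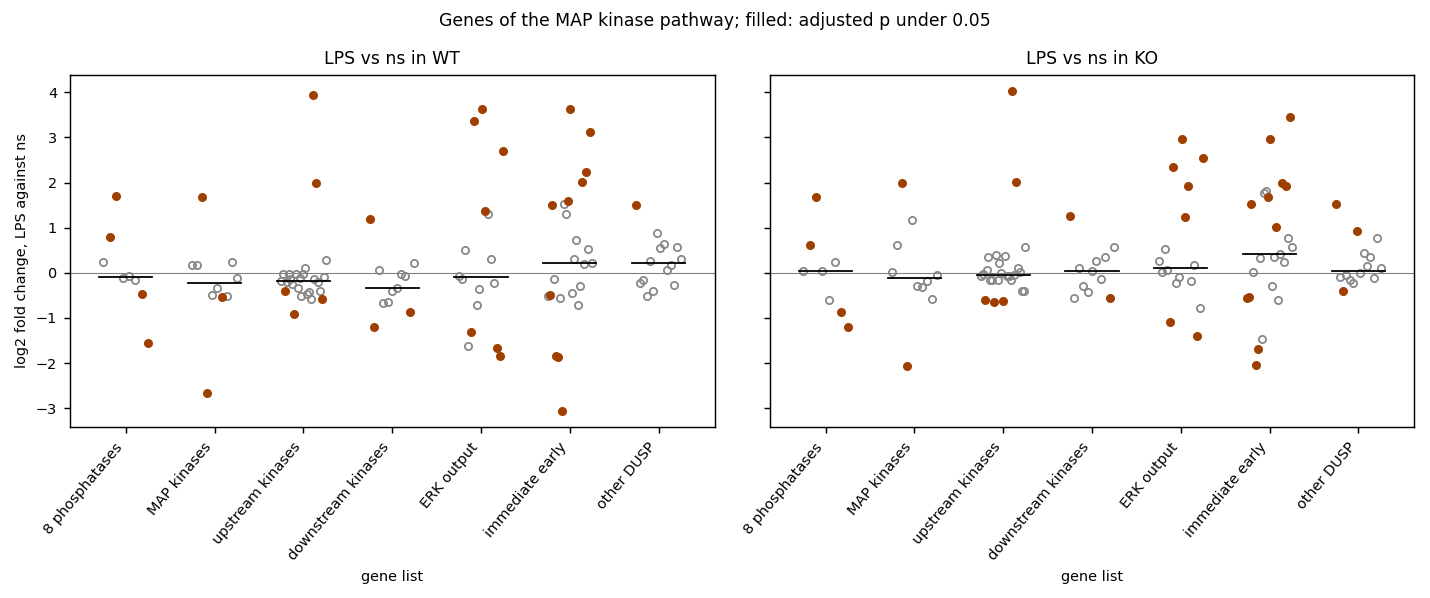
Log2 fold changes (LPS against ns) of the 8 phosphatase genes and of the genes of 6 lists around them, in WT (left) and KO (right); points are genes, filled ones passed an adjusted p of 0.05 and black lines are list medians. Both directions are filled among the 8 phosphatases, 2 up and 2 down in each genotype.

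Between genotypes and sexes no listed gene passed the test. Over the 6 lists, 102 genes were tested between the sexes and genotypes of the sex experiment and 95 with LPS and ns, and edgeR called 0 of them in any genotype, sex or interaction contrast. At an unadjusted p under 0.05 there were 15 of the 102 between KO and WT in males, 12 of them lower in KO, and 2 in females, beside 6.85% and 5.22% of all genes tested. In males 4.82% of all genes were lower in KO at that level, and 1.28% without the 2 neutrophil-rich animals. The counts of the lists without those animals are not given here. There were 8 of the 95 at ns, 7 of them lower in KO, and 5 at LPS, beside 9.27% and 6.10% of all genes. Immediate early and dissociation genes had a median log2 fold change between KO and WT of -0.33 in males and 0.19 in females, and 2 of 23 were above 0 in males and all 23 in females. At ns and at LPS the median was -0.44 and -0.30, with 1 of 23 above 0 in each, and 0 of the 23 were called in any of the 4 comparisons. Their summed level was 4976 to 11290 CPM over the 18 animals of the sex experiment and 513.0 to 2073 CPM over the LPS experiment, and the tables were counted separately. Dusp1 alone stood at 185.3 to 726.1 CPM in the sex experiment and at 11.2 to 67.2 CPM in the ns samples of the LPS experiment, WT libraries of number 2 left out.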

How the data were processed

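Poly(A)-selected RNA of CD11b-positive brain cells was sequenced, and the authors deposited 2 tables of raw counts per gene. Per the submitters' processing notes, FastQC, STAR 2.6.1, featureCounts, Subread, DESeq2 and the build GRCm39 were used, with no role or order given. The strand setting is not given in the sources used here. The gene lengths of the sex table, a number of another kind deposited beside its counts, span whole genes with introns. Introns within a gene's span can therefore add to the counts of that table. Even numbers made up 78.1% to 87.5% of a library's counts from 1 to 49 there and 40.8% to 46.0% in the other table, so the tables were made differently and no fit spans both.

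Members and gene lists were chosen with earlier results of these data known. Counts were tested with edgeR 4.0.16 (R 4.3.3; filterByExpr, TMM scaling, robust quasi-likelihood fit, Benjamini-Hochberg adjustment over all genes, calls at an adjusted p under 0.05). One fit per experiment held all groups, the LPS fit with library set as covariate and the WT libraries of number 2 as groups of their own. The SE is the log2 fold change divided by the root of F. WT LPS 8 and WT LPS 9 were summed to 1 sample. Levels are TMM-scaled CPM, and levels per kb use merged exon lengths of a GENCODE annotation of the older mouse build, not that of the counts. Nothing in the labels says whether samples of a group were separate animals throughout, so p-values measure the spread between these samples. Each table had 0 columns without a sample, and 6 repeat libraries of the labels had no column and were not analysed here. Named were all members, at most the 4 genes of a list with the lowest adjusted p per comparison, Dusp1, the checks P2ry12 and Saa3, and the 2 genes most like each member. On simulated counts with 200 changed genes, log2 changes of 1 and 2 were called in 60% and 93% of cases for KO against WT in males (31008 genes) and in 53% and 95% for LPS against ns in KO (17371 genes). The changed genes had a mean of at least 1 CPM, which Dusp4 did not reach in the LPS experiment. No set effect and no library standing apart was simulated. In the data 26.2% of genes were called with LPS in KO, so these shares do not measure the power of the real tests. Alternatives were DESeq2 1.42.0, RLE scaling, other filters, a replicate block, each library set alone, the labelled WT groups and leaving out libraries. Leaving out the 6 libraries that stood apart, or the 2 neutrophil-rich animals, was chosen after seeing the data.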

Additional observations from a re-analysis of the deposited data

Results flagged for a closer look

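In 6 of 64 combinations of gene and group, 1 sample lay far from the rest by Dixon's criterion, which chance meets in about 1 of 20 groups. Dusp2 in male KO 5 was 20.09 CPM, against 7.316 to 8.722 CPM in the other male KO animals. In male WT 5 it was 16.96 CPM, against 7.034 to 8.406 CPM. The same 2 animals were the highest of their groups in Dusp5: male KO 5 had 8.675 CPM, against 2.926 to 4.112 CPM, and male WT 5 had 18.38 CPM, against 3.165 to 4.1 CPM. Dusp3 was lowest in KO LPS 5, at 17.56 CPM against 61.5 to 92.17 CPM, and in KO ns 6, at 21.41 CPM against 53.36 to 80.28 CPM. Both belong to the 6 libraries that stood apart on the first principal component.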

How the results depend on the processing

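The number of members called moved by over 1.5 times in 3 cases. It was 0 for LPS in WT with the libraries of number 2 in their labelled groups, 1 for LPS in KO with set 2 alone and 0 for LPS in WT with set 2 alone, where fewer samples were fitted. The other 95 counts of called members, and all 90 with 1 animal left out, stayed within that limit. Log2 fold changes that turned sign were uncalled throughout. With the labelled WT groups they were 0.125 for Dusp10 and -0.387 for Dusp7 between KO and WT at LPS, -0.045 for Dusp10 and 0.028 for Dusp7 at ns, -0.152 for Dusp10 and 0.58 for Dusp5 for LPS in WT, and 0.209 for Dusp16, 0.24 for Dusp2 and -0.415 for Dusp7 in the interaction. With no library of number 2 in any group the interaction of Dusp2 was 0.004. In set 1 alone KO against WT at LPS was 0.061 for Dusp10 and -0.017 for Dusp3, and 0.081 for Dusp3 at ns, and LPS gave -0.061 in KO and 0.037 in WT for Dusp3. In set 2 alone the Dusp2 interaction was 0.528, Dusp4 at ns -0.001 and Dusp6 at LPS 0.122. Without the 6 libraries that stood apart Dusp3 had -0.014 at LPS, 0.07 at ns and 0.105 for LPS in WT, and Dusp4 0.188 for LPS in WT. With WT LPS 8 and 9 as 2 samples Dusp3 had -0.1 at LPS and 0.018 for LPS in WT, and Dusp4 0.047. DESeq2 gave 0.023 for Dusp4 in WT, and a filter at 5 CPM -0.011 for Dusp3 in KO, while Dusp2, Dusp4, Dusp5 and Dusp10 had no value there. Without the 2 neutrophil-rich animals males had 0.331 for Dusp5, -0.092 for Dusp6 and -0.125 for Dusp7, and the value averaged over the sexes was 0.592 for Dusp5. With 1 animal left out, males ranged from -0.338 to 0.456 for Dusp2, -0.106 to 0.03 for Dusp3, -1.075 to 0.331 for Dusp5, -0.095 to 0.099 for Dusp6 and -0.128 to 0.098 for Dusp7, and the averaged Dusp5 value from -0.34 to 0.37. Turns in the LPS interaction were listed only for Dusp2, Dusp6, Dusp7 and Dusp16, and those in the averaged and sex-by-genotype contrasts only for Dusp5. None were listed for females against males in WT. Other members turned too: the LPS interaction went from 0.395 to as low as -0.349 for Dusp5. For Dusp10 it went from -0.196 to as high as 0.169, and the averaged value of Dusp3 from 0.03 to as low as -0.045. The causes were not tested.

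In the labels, samples of 1 number share only that number. In the LPS experiment 23 of 35 same-number pairs had deviations correlated above 0.1, against 121 of 257 other pairs across groups. The mean correlations were 0.308 and 0.037. In the sex experiment the counts were 17 of 24 and 31 of 97, with means of 0.195 and -0.037. Same-number samples were thus more alike on average. In the LPS experiment each same-number pair also lay within 1 library set, while the other pairs ran within and across the sets. Set means were not removed there, so number and set cannot be told apart in that comparison. Whether the numbers mark a pairing or a batch was not tested, and the main fits did not include them. With the replicate block, 0 members were called in the genotype and sex contrasts, LPS in WT lost the call of Dusp6 (-0.399, adjusted p = 0.0873 by edgeR), and the sign turned for Dusp10 at LPS (0.091) and Dusp3 for LPS in KO (-0.027). Depth limits Dusp4, with 0 to 27 counts per library of the LPS experiment, and also Dusp2, with 4 to 105 counts per sample in KO ns.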
